A study of Homo sapiens with 12 samples.

Results

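The BCL2 family of apoptosis regulators was examined here through 10 genes chosen by name, of the 20345 rows of the expression table. These comprised the anti-apoptotic genes BCL2, BCL2L1 and MCL1, the effector genes BAX and BAK1, and the BH3-only genes BBC3, PMAIP1, BCL2L11, BID and BAD. RNA-seq was performed in HGC-27 cells, an established line from an undifferentiated human gastric carcinoma, in 12 libraries that fall into 4 groups of 3. The groups were untreated cells (called WT in the design text, with no genotype entry of their own), the same cells given GLUP peptide, cells labelled TEAD4KO without treatment, and cells labelled TEAD4KO given GLUP peptide. TEAD4 binds DNA and carries out the transcriptional output of the Hippo pathway. GLUP is a cyclic peptide built from repeats of a TEAD4-binding motif, designed to link TEAD4 molecules to each other. The series was designed to find which transcripts move with GLUP, and whether they do so in cells that lack TEAD4. The labels give neither the dose nor the duration of treatment, and whether the TEAD4KO cells derive from 1 clone is not given in the sources used here.

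Members of this family decide at the mitochondrial outer membrane whether a cell enters apoptosis. The effectors BAX and BAK1 (encoding BAK) can open pores in that membrane and release cytochrome c, which lets APAF1 activate caspase 9. The anti-apoptotic proteins hold the effectors and their activators in check, and BH3-only proteins, which answer to stress signals such as p53 or growth factor loss, either neutralise the anti-apoptotic proteins or engage the effectors directly. Solid tumor cells are known to rely mostly on MCL1 and on BCL-XL, the long product of BCL2L1. Each value below sums the isoforms of a gene, so long and short forms of BCL2L1 or MCL1, which can have opposite functions, were not separated.

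Transcript levels are in FPKM, fragments scaled to transcript length and to the mapped total of a library. Differences were tested with limma on log2(FPKM + 1) over the 11225 rows whose mean reached 1 FPKM, and a gene passed at an adjusted p (Benjamini-Hochberg) under 0.05. All 10 members met that filter. The summed FPKM ranged from 375361 to 384477 in the WT libraries and from 397321 to 423757 in the libraries labelled TEAD4KO, and the depth of sequencing is unknown. The TEAD4 transcript was not lower in the labelled cells: it lay between 22.9 and 25.8 FPKM in WT and between 26.0 and 30.1 FPKM in the libraries labelled TEAD4KO, so these are called by their label throughout. Of the markers listed for carcinoma cells of epithelial origin, KRT8 lay between 3.78 and 9.13 FPKM and CDH1 between 2.04 and 3.68 FPKM. EPCAM and KRT18 stayed below 0.3 FPKM, and KRT19 was at 0 in 9 of the 12 libraries. VIM, on the same list, was at 1238 FPKM or more in every library. Immune markers and the endothelial markers with values were low. CD14 lay between 0.102 and 0.703 FPKM and PTPRC between 0.110 and 0.276 FPKM. CD79A, LYZ and VWF stayed at or below 0.171 FPKM, and CD3E and CDH5 were listed at 0 in all 12 libraries. PECAM1, also on the endothelial list, has no row among the values used here. Of the erythroid markers, HBB was at 0 in all 12 libraries, whereas HBA1 was at 28.61 FPKM or more in every library. The source of the HBA1 signal was not tested. Of the 5 fibroblast markers, COL1A1, DCN and LUM were at 48.6 FPKM or more throughout. COL1A2 lay between 4.93 and 9.80 FPKM and PDGFRB between 0.820 and 1.27 FPKM. In such bulk RNA, fewer cells of a type and less RNA per cell cannot be told apart.

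The DNA just before the start site was read for the members from RefSeq promoters on GRCh38.p14, in which 9 of the 10 genes had an entry and MCL1 had none. The TEAD motif GGAATG, searched on both strands of the whole 300-base windows, was found in 1 of 9 members (BBC3), against 14% of the 27305 promoters in that table. Counted in the 250 bases before the start, it was found in 0 of 9, against 11.9% of all promoters and 9.2% of those of tested genes. The GC box GGGCGG, which was added to the search after the values were seen, was found in 6 of 9, against 44.6% of all promoters and, counted in the 250 bases before the start, 69% of those of tested genes. The sequences that follow, 5′ to 3′ on the strand of the gene, are the 250 bases before the start of the 3 members whose levels differed most among the 4 groups by limma's moderated F, with each GC box on either strand in capitals. The first is chr20:31723964-31724213, minus strand, the next is chr11:64284705-64284954, minus strand, and the last is chr18:59899746-59899995, plus strand.
BCL2L1: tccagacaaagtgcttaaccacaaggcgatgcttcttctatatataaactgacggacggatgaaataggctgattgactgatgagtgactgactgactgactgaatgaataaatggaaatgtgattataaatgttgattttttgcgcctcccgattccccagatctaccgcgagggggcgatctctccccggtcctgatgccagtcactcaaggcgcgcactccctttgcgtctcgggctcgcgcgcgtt
BAD: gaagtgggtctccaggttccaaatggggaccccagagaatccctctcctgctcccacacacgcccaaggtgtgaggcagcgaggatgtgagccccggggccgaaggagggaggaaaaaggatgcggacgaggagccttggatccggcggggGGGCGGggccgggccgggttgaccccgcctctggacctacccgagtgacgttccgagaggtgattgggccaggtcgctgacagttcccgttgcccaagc
PMAIP1: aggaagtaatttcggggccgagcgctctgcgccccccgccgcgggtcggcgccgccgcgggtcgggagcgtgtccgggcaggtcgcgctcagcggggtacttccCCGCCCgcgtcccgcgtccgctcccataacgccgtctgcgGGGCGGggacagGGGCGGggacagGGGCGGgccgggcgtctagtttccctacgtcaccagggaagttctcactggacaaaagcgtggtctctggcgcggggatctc
BCL2L1 carried no GC box in this stretch, BAD carried 1 and PMAIP1 carried 4. The GC content of the 250 bases was 50% for BCL2L1, 66.4% for BAD and 72.8% for PMAIP1, against a median of 65.2% over the promoters of 9034 tested genes. None of the 3 held GGAATG, which says only that these letters are not in this window.

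HGC-27 cells expressed the family unevenly. MCL1 had the highest mean over the 12 libraries with 57.4 FPKM, above 90.7% of the tested rows, followed by BAX with 42.3 FPKM and BCL2L1 with 33.7 FPKM. BID (15.6 FPKM), BAK1 (14.4 FPKM), BAD (14.4 FPKM) and PMAIP1 (12.6 FPKM) formed a middle tier. BCL2L11 (3.43 FPKM), BCL2 (1.97 FPKM) and BBC3 (1.42 FPKM) were the lowest. The ranges over libraries of MCL1 and BAX did not overlap, nor did those of BCL2L1 and BID, of PMAIP1 and BCL2L11, or of BCL2L11 and BCL2. The ranges of BAX and BCL2L1 overlapped across libraries, although BAX was above BCL2L1 within each of the 12. The ranges of the 4 middle genes overlapped with their neighbours, as did those of BCL2 and BBC3. By share of the summed FPKM of the 10 genes, MCL1 took a mean of 29.2%, BAX 21.5%, BCL2L1 17.0% and BCL2 1.01%. The most even member was MCL1, with a coefficient of variation of 4.73% over the 12 libraries, and BBC3 (33.7%) and BAD (23.3%) varied most.

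**Figure D1:**
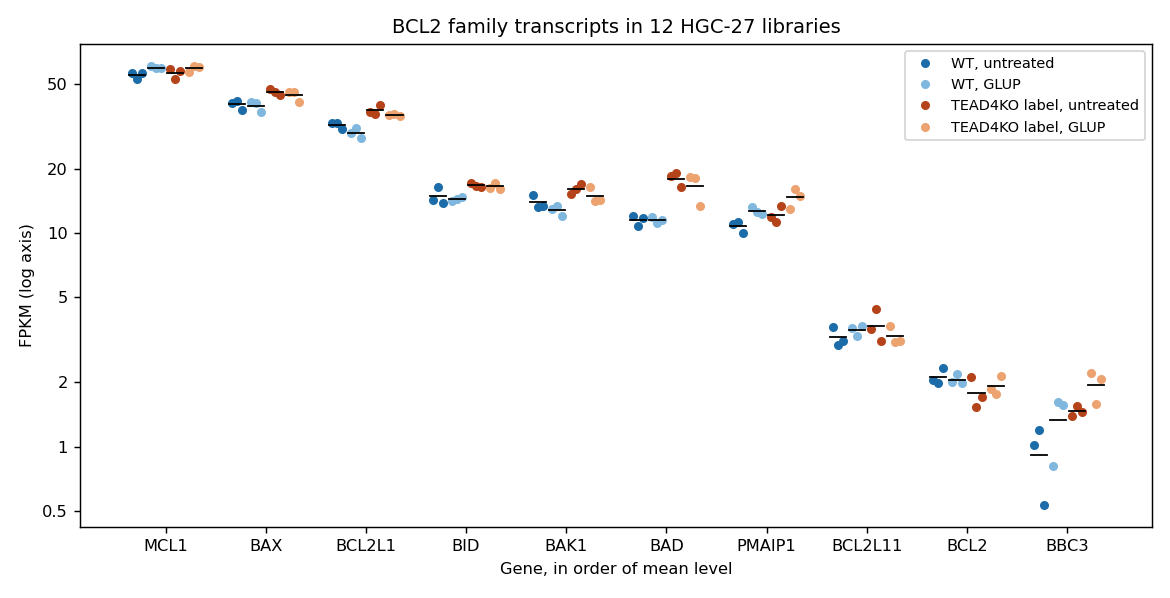
Level of each of the 10 genes in FPKM on a log axis, in order of mean level, with 1 point per library, a colour for each of the 4 groups and a bar at the mean of each group of 3. MCL1 stays between 52.4 and 60.5 FPKM in all libraries. On these values, not rescaled to the library total, every library labelled TEAD4KO lies above every WT library for BCL2L1 and BAD.

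The first question was whether the family differs between cells labelled TEAD4KO and WT cells. Averaged over both treatments, 6 of the 10 members passed the test and all 6 were higher in the libraries labelled TEAD4KO: BCL2L1, BAX, BAK1, BBC3, BID and BAD. Among all tested genes 14.4% passed as higher in this comparison. No member passed as lower, against 5.67% of all genes. The median log2 difference of the 10 members was 0.18, against 0.01 over all tested genes, and no difference reached the 2-fold limit used by the study. The p-values measure only the spread between these libraries, since nothing in the labels says that replicates came from separate cultures.

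Among the anti-apoptotic genes, BCL2L1 was the one that differed. BCL2L1 (ENSG00000171552, chr20:30252255-30311792 on GRCh37, minus strand) measured 32.8, 32.7 and 30.7 FPKM in untreated WT and 29.4, 30.9 and 27.9 FPKM in WT with GLUP. In the cells labelled TEAD4KO it measured 36.9, 35.9 and 39.7 FPKM without treatment and 35.7, 36.0 and 35.4 FPKM with GLUP. As deposited, all 6 labelled libraries were thus above all 6 WT libraries. Relative to the library total, TEAD4KO untreated replicate 2 lay below WT untreated replicate 1. The mean rose from 30.7 ± 1.90 to 36.6 ± 1.59 FPKM (SD, n = 6 each), a log2 difference of 0.25 with a standard error of 0.04 (limma, adjusted p = 0.0017). On the opposite strand the lncRNA gene ABALON shares 1735 of the 4197 exon bases annotated for BCL2L1, it has no row among the values used here, and the strand setting of the counting is not given in the sources used here.

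MCL1 (ENSG00000143384, chr1:150533371-150552214, minus strand), whose short-lived protein binds NOXA and BIM, did not separate by label. It measured 56.1, 52.4 and 55.8 FPKM in untreated WT against 58.7, 52.7 and 57.4 FPKM in untreated cells labelled TEAD4KO. With GLUP the values were 60.1, 59.0 and 59.1 FPKM in WT and 56.8, 60.5 and 59.7 FPKM under the label. The groups overlapped at both treatments, and the log2 difference by label was 0.01 ± 0.04 (SE, adjusted p = 0.831 by limma), with a 95% interval from -0.07 to 0.10. The sign of this small value turned under each of the 3 other scalings.

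BCL2 (ENSG00000171791, chr18:60790579-60987361, minus strand), the founding member of the family, was the only one with a lower mean under the label. It measured 2.06, 1.99 and 2.33 FPKM in untreated WT and 2.01, 2.18 and 1.97 FPKM in WT with GLUP. Under the label the values were 2.11, 1.54 and 1.70 FPKM without treatment and 1.85, 1.76 and 2.14 FPKM with GLUP. The ranges overlapped and the log2 difference was -0.12 with a standard error of 0.07 (limma, adjusted p = 0.262).

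Both effectors passed on the values as deposited, and neither passed after GC and length correction (limma, adjusted p = 0.342 for BAX and 0.161 for BAK1) or after rescaling to the same total. BAX (ENSG00000087088, chr19:49458072-49465055, plus strand), which moves from the cytosol to mitochondria when activated, measured 40.4, 41.6 and 37.8 FPKM in untreated WT and 40.8, 40.7 and 36.8 FPKM in WT with GLUP. In cells labelled TEAD4KO it measured 47.2, 45.9 and 44.4 FPKM without treatment and 45.7, 45.5 and 41.1 FPKM with GLUP. Of the 6 labelled libraries 5 were above every WT library. The log2 difference was 0.18 with a standard error of 0.05 (limma, adjusted p = 0.018).

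BAK1 (ENSG00000030110, chr6:33540324-33548070, minus strand), whose protein resides in the mitochondrial membrane, measured 14.997, 13.2 and 13.4 FPKM in untreated WT and 12.97, 13.4 and 11.98 FPKM in WT with GLUP. Under the label it measured 15.2, 16.1 and 17.0 FPKM without treatment and 16.5, 14.1 and 14.2 FPKM with GLUP. Of these 6 libraries 4 lay above every WT library. The log2 difference was 0.20 with a standard error of 0.06 (limma, adjusted p = 0.023).

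Of the BH3-only genes, BAD showed the widest separation of all members. BAD (ENSG00000002330, chr11:64037302-64052176, minus strand), a sensitizer that is kept inactive by phosphorylation under growth factor signalling and that binds BCL-XL and BCL2, measured 12.1, 10.7 and 11.7 FPKM in untreated WT and 11.9, 11.2 and 11.6 FPKM in WT with GLUP. Under the label it measured 18.4, 19.2 and 16.3 FPKM without treatment and 18.3, 18.1 and 13.3 FPKM with GLUP. Each labelled library was above each WT library, and the lowest was TEAD4KO GLUP replicate 16. The mean rose from 11.5 ± 0.490 to 17.3 ± 2.15 FPKM (SD, n = 6 each). The log2(FPKM + 1) difference was 0.54 with a standard error of 0.07, which is 1.45-fold on the FPKM + 1 scale (limma, adjusted p = 0.00038). Over most of its length BAD overlaps GPR137 on the opposite strand, and 404 of the 1708 exon bases of BAD are shared with that gene. GPR137 was also higher under the label, by 0.23 on the log2 scale with a standard error of 0.06 (limma, adjusted p = 0.019). After GC and length correction it was at 0.06 (limma, adjusted p = 0.406). Without that correction GPR137 stood at 0.13 in untreated cells (limma, adjusted p = 0.406) and at 0.33 with GLUP (limma, adjusted p = 0.043). How far reads of the pair were kept apart was not tested.

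BID (ENSG00000015475, chr22:18216904-18257536, minus strand), which links the death receptor arm to mitochondria once caspase 8 cleaves it, measured 14.3, 16.5 and 13.8 FPKM in untreated WT and 14.1, 14.4 and 14.7 FPKM in WT with GLUP. Under the label it measured 17.2, 16.6 and 16.4 FPKM without treatment and 16.3, 17.2 and 16.1 FPKM with GLUP. The only overlap came from WT untreated replicate 2, the highest of the WT libraries. The log2 difference was 0.18 with a standard error of 0.05 (limma, adjusted p = 0.025).

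BBC3 (ENSG00000105327, chr19:47724079-47736023, minus strand), which encodes PUMA, a p53 target that binds all anti-apoptotic members, was low throughout. It measured 1.01, 1.20 and 0.534 FPKM in untreated WT and 0.812, 1.62 and 1.57 FPKM in WT with GLUP. Under the label it measured 1.397, 1.55 and 1.46 FPKM without treatment and 2.20, 1.58 and 2.08 FPKM with GLUP. Untreated, the groups did not overlap, while with GLUP they did. The log2(FPKM + 1) difference over both treatments was 0.37 with a standard error of 0.11 (limma, adjusted p = 0.039).

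PMAIP1 (ENSG00000141682, chr18:57567228-57571537, plus strand) encodes NOXA, a BH3-only protein that binds MCL1 and is induced by p53 and by the integrated stress response. It measured 11.0, 11.3 and 10.0 FPKM in untreated WT and 13.3, 12.6 and 12.2 FPKM in WT with GLUP. Under the label it measured 11.9, 11.3 and 13.4 FPKM without treatment and 12.99, 16.1 and 14.97 FPKM with GLUP. The difference by label was 0.18 on the log2 scale with a standard error of 0.06 and did not pass (limma, adjusted p = 0.062), whereas without TEAD4KO GLUP replicate 14 it was 0.22 and passed (limma, adjusted p = 0.032).

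BCL2L11 (ENSG00000153094, chr2:111876955-111926021, plus strand) encodes BIM, an activator that FOXO factors induce and that ERK signalling removes. It measured 3.62, 2.99 and 3.12 FPKM in untreated WT and 3.57, 3.31 and 3.65 FPKM in WT with GLUP. Under the label it measured 3.55, 4.38 and 3.13 FPKM without treatment and 3.68, 3.09 and 3.12 FPKM with GLUP. All 4 groups overlapped, and the log2 difference was 0.03 with a standard error of 0.08 (limma, adjusted p = 0.791), which turned to -0.05 when libraries were rescaled to the same total.

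On the values as deposited, the separation of all 6 labelled from all 6 WT libraries was met by 2 of 10 members, BCL2L1 and BAD. The same held for 7.06% of all tested genes. Relative to the library total BAD stayed separated and BCL2L1 did not. For BCL2L1, TEAD4KO untreated replicate 2 (35.9 FPKM of 423757) then lay below WT untreated replicate 1 (32.8 FPKM of 381960). Within untreated cells BAD was the single member that passed as higher, against 4.92% of all genes, with a log2 difference of 0.60 and a standard error of 0.11 (limma, adjusted p = 0.0067), while BCL2L1 was at 0.22 with a standard error of 0.06 (limma, adjusted p = 0.052). With GLUP, BCL2L1 at 0.27 with a standard error of 0.06 (limma, adjusted p = 0.018) and BAD at 0.47 with a standard error of 0.11 (limma, adjusted p = 0.019) passed, 2 of 10 members against 4.91% of all genes. Under the block on replicate number, which pairs labelled and WT libraries of the same number, 6.76% of all genes and the same count of members, 2, passed as higher. Without GLUP, BAX, BAK1, BBC3 and BID were above WT by 0.16 to 0.38 on the log2 scale at unadjusted p under 0.05, as were 21.7% of all genes in either direction, and did not pass. With GLUP the same held for these 4 and PMAIP1, at 0.16 to 0.35, where 23.9% of all genes had such a p.

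The effect of the label moved with the length and the base composition of transcripts, and so did the members. Over the tested genes with a canonical transcript, the Spearman correlation of the label effect with transcript length was -0.534 and with GC content 0.259. With genes split into 10 bins of equal size by length, the median log2 difference was 0.19 in the bin of shortest transcripts and -0.12 in that of the longest. BAX, with a transcript of 795 bases, and BAD, with 929 bases and 65.8% GC, are among the shortest, and BBC3 has 69.7% GC. BCL2 (6881 bases), BCL2L11 (5098 bases) and MCL1 (3950 bases) have the longest transcripts among the members, and those were the 3 with the lowest label effects. BCL2L1, with 2574 bases, stood at 0.25 where the genes of its length bin had a median of 0.04.

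**Figure D2:**
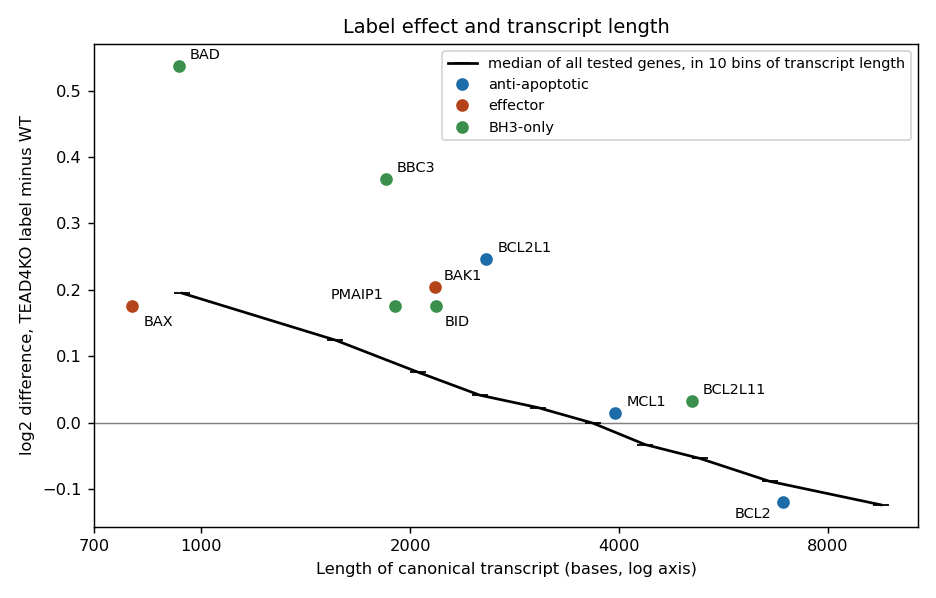
Log2 difference in log2(FPKM + 1) between libraries labelled TEAD4KO and WT libraries, plotted against the length of the canonical transcript in bases (log axis), with 1 point per member coloured by role. The black line joins the medians of all tested genes in 10 bins of length and falls from 0.19 to -0.12. BAX lies to the left of the line at 0.18, BCL2 lies just below it, and BCL2L1, BBC3 and BAD lie furthest above it.

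Once the dependence on GC content and length had been removed from every library, 2 of 10 members passed as higher, against 7.99% of all genes. BCL2L1 was higher by 0.22 with a standard error of 0.05 (limma, adjusted p = 0.011) and BAD by 0.22 with a standard error of 0.06 (limma, adjusted p = 0.030). BAX, in contrast, went from 0.18 to -0.05 with a standard error of 0.04 (limma, adjusted p = 0.342), and BBC3 from 0.37 to 0.04 with a standard error of 0.11 (limma, adjusted p = 0.814). BAK1 (0.13, adjusted p = 0.161) and BID (0.14, adjusted p = 0.052) kept their sign and did not pass. The median of the members was then 0.09. The TEAD4 transcript went from 0.20 (limma, adjusted p = 0.0075) to 0.06 (limma, adjusted p = 0.342) with the same correction. When libraries were instead rescaled to the same summed level, BCL2L1 (0.14, adjusted p = 0.033) and BAD (0.43, adjusted p = 0.0021) were again the 2 members that passed by limma, against 6.65% of all genes passing as higher. Within each treatment, the correction left BCL2L1 past the threshold with GLUP (limma, adjusted p = 0.047, and 0.053 with the block on replicate number), as 2.63% of all genes did, and no member without GLUP (1.16%).

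**Figure D3:**
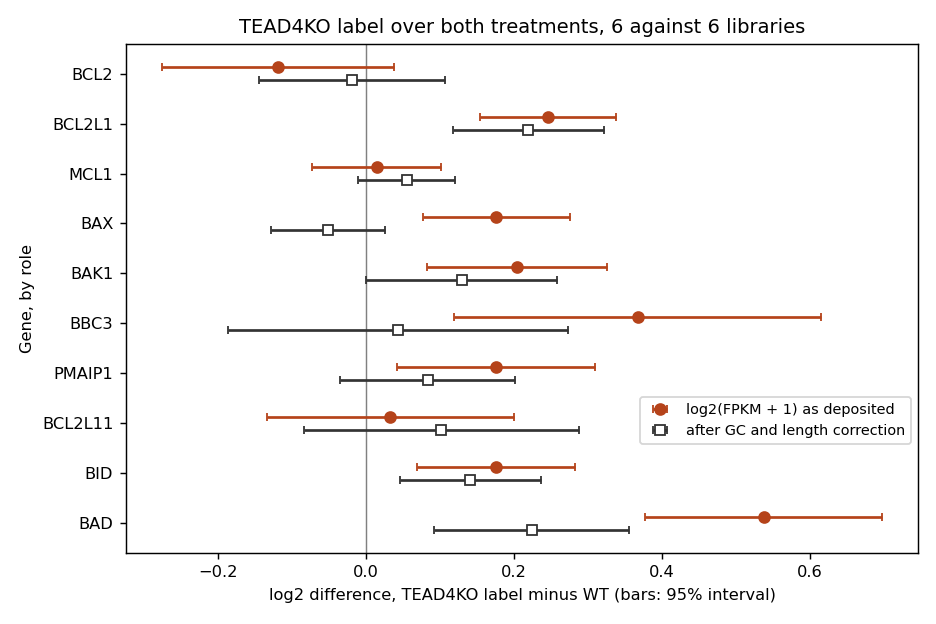
Log2 difference between the 6 libraries labelled TEAD4KO and the 6 WT libraries for each member, with its 95% interval, before (filled) and after (open) correction for GC content and transcript length. The interval of BCL2L1 stays above 0 and nearly in place, that of BAD stays above 0 at a smaller value, and those of BAX and BBC3 include 0 after correction.

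A single library bore on several of these calls. Without WT untreated replicate 3, the library with the lowest BBC3, BID and PMAIP1 values, 2 of 10 members passed in the comparison over both treatments, again BCL2L1 and BAD, against 9.68% of all genes passing as higher. With any other library left out, 4 to 6 members passed. BAX lost its call without WT untreated replicate 3 or WT GLUP replicate 16, where its highest adjusted p was 0.058 (limma). BAK1 lost it without WT untreated replicate 2 or 3, WT GLUP replicate 16 or TEAD4KO GLUP replicate 14, with adjusted p up to 0.065 (limma). BID lost it without WT untreated replicate 1 or 3, WT GLUP replicate 14 or 15 or TEAD4KO GLUP replicate 15, with adjusted p up to 0.077 (limma). BBC3 lost it without WT untreated replicate 1 or 3, WT GLUP replicate 14, TEAD4KO untreated replicate 2 or 3 or TEAD4KO GLUP replicate 14, with adjusted p up to 0.104 (limma). In the comparison with GLUP alone, neither BCL2L1 nor BAD passed without WT GLUP replicate 14 or 16 or TEAD4KO GLUP replicate 14 or 15, with log2 differences still from 0.24 for BCL2L1 and from 0.40 for BAD. BCL2L1 kept its call over both treatments in all 23 alternative analyses, with log2 differences from 0.14 to 0.26 and adjusted p from 0.0012 to 0.033 (limma). BAD kept it in all 23 as well, with log2 differences from 0.22 to 0.61 and adjusted p from 1.4e-05 to 0.042 (limma).

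The second question was whether the family responds to GLUP. No member passed in WT, where 0.00891% of all genes passed, nor in cells labelled TEAD4KO (0.0445%), nor over both genotypes (0.258%, all by limma). At unadjusted p under 0.05 there was 1 member in WT (3.43% of all genes), 1 in cells labelled TEAD4KO (6.38%), and 4 over both (7.14%). The median log2 difference of the members over both genotypes was -0.02, and that of all tested genes was -0.0040. The 95% intervals of the 10 members over both genotypes lay between -0.23 and 0.51 on the log2(FPKM + 1) scale. Like the label effect, the GLUP effect over both genotypes moved with transcript length (Spearman correlation 0.273) and GC content (-0.226).

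PMAIP1 had the smallest p of the members for GLUP. In WT all 3 GLUP libraries (12.2 to 13.3 FPKM) were above all 3 untreated libraries (10.0 to 11.3 FPKM), and in cells labelled TEAD4KO the ranges overlapped (12.99 to 16.1 against 11.3 to 13.4 FPKM). The log2 difference was 0.22 with a standard error of 0.09 in WT (limma, adjusted p = 0.999) and 0.25 with a standard error of 0.09 under the label (limma, adjusted p = 0.648). Over both genotypes it was 0.24 with a standard error of 0.06, a 1.18-fold difference on the FPKM + 1 scale (limma, unadjusted p = 0.0022, adjusted p = 0.234). The value stayed between 0.20 and 0.27 in all 23 alternative analyses and did not pass in any, with adjusted p from 0.119 to 0.546.

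The other 3 members at unadjusted p under 0.05 over both genotypes were BBC3, MCL1 and BCL2L1. BBC3 was higher with GLUP by 0.27 with a standard error of 0.11 (limma, adjusted p = 0.645). MCL1 was higher by 0.09 with a standard error of 0.04 (limma, adjusted p = 0.654). BCL2L1 was lower by 0.10 with a standard error of 0.04 (limma, log2 difference -0.10, adjusted p = 0.679). Groups that do not overlap were found in WT for MCL1 and PMAIP1, both higher with GLUP, which is 2 of 10 members against 10.2% of all tested genes, and none was lower throughout (7.16%). Under the TEAD4KO label they were found for BBC3, higher with GLUP, which is 1 of 10 against 2.85%, and again none was lower throughout (3.98%).

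The remaining 6 members had unadjusted p above 0.05 over both genotypes. BAK1 had a log2 difference of -0.11 with a standard error of 0.06 (limma, adjusted p = 0.748), and BAD of -0.06 with a standard error of 0.07 (limma, adjusted p = 0.933). BAX was at -0.04 with a standard error of 0.05 (limma, adjusted p = 0.932) and BID at -0.03 with a standard error of 0.05 (limma, adjusted p = 0.951). BCL2 at 0.02 with a standard error of 0.07 (limma, adjusted p = 0.986) and BCL2L11 at -0.02 with a standard error of 0.08 (limma, adjusted p = 0.990) were the nearest to 0.

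**Figure D4:**
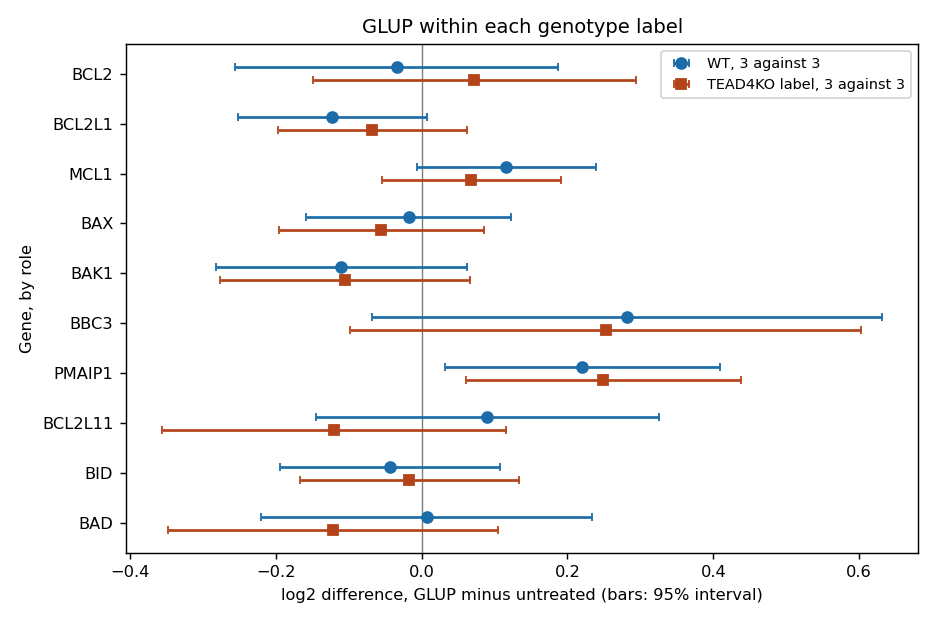
Log2 difference between GLUP and untreated libraries for each member with its 95% interval, in WT (circles, 3 against 3) and in cells labelled TEAD4KO (squares, 3 against 3). The intervals of PMAIP1 lie above 0 in both, at 0.22 and 0.25, those of the other 9 members include 0 in both, and the intervals of the 2 genotype labels overlap for every member.

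The design also asks whether GLUP acts differently in cells labelled TEAD4KO. No member passed the interaction test in limma, 0 of 10 had an unadjusted p under 0.05 (2.53% of all genes), and 0.00891% of all genes passed. The interaction term was largest for BCL2L11, which was higher with GLUP in WT by 0.09 and lower under the label by 0.12 (log2 difference -0.12), an interaction of -0.21 with a standard error of 0.15 (limma, adjusted p = 1.00). For PMAIP1 the interaction was 0.03 with a 95% interval from -0.24 to 0.30, and for BCL2L1 it was 0.06 with an interval from -0.13 to 0.24. Both intervals are wider than the GLUP difference of the same gene.

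Summed by role, the anti-apoptotic genes reached 87.1 to 92.1 FPKM in the WT libraries and 90.2 to 98.7 FPKM in those labelled TEAD4KO. The sum of BAX and BAK1 ranged from 48.8 to 55.42 FPKM and from 55.37 to 62.4 FPKM, and that of the 5 BH3-only genes from 39.2 to 43.7 FPKM and from 49.6 to 56.0 FPKM. The BH3-only sum thus separated the labels in every library. BAD alone made up 56.7% of the difference of 10.1 FPKM between the mean sums, and without BAD the sums still did not overlap (27.5 to 32.1 against 33.8 to 37.9 FPKM). The ratio of anti-apoptotic to BH3-only FPKM was 2.12 ± 0.0869 in WT and 1.83 ± 0.108 under the label (SD, n = 6 each), with no overlap between 2.04 to 2.27 and 1.70 to 1.96. The ratio of anti-apoptotic to effector FPKM overlapped, with 1.70 ± 0.0812 in WT and 1.59 ± 0.105 under the label. These sums were described and not tested, carry the same dependence on transcript length and GC content, and say nothing of protein. They were not rescaled to the same library total, which was higher in every library labelled TEAD4KO than in any WT library. The highest WT sum without BAD, 32.1 FPKM, came from WT GLUP replicate 16, with a library total of 375361. The lowest labelled one, 33.8 FPKM, came from TEAD4KO untreated replicate 2, with a total of 423757. Relative to its library total the first of these sums was the larger. The separation without BAD therefore does not hold after such rescaling.

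**Figure D5:**
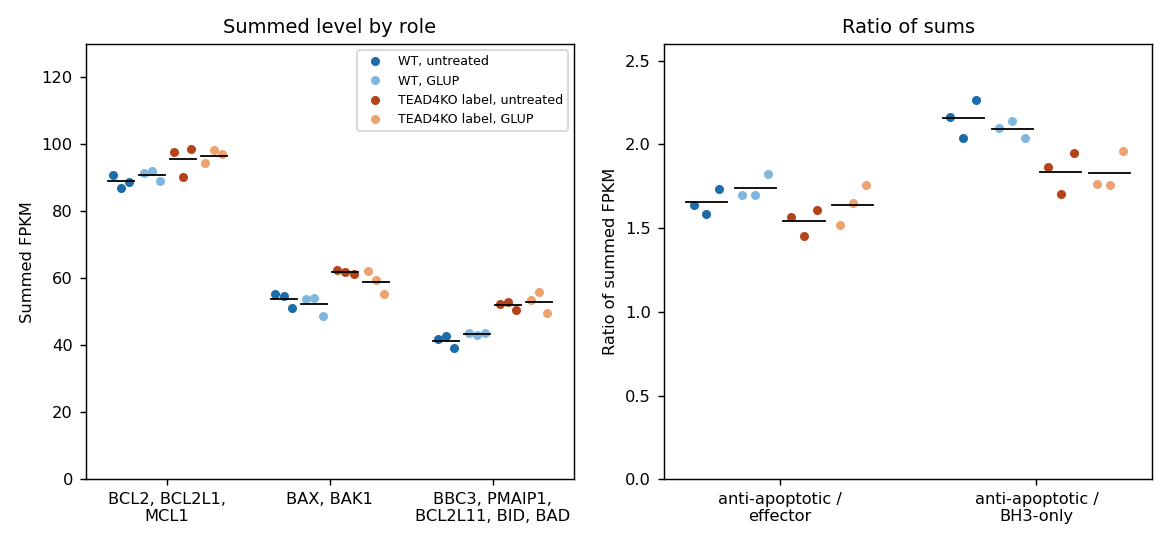
Left, summed FPKM of the anti-apoptotic, effector and BH3-only members in each of the 12 libraries, and right, the ratios of those sums, with 1 point per library and a bar at the mean of each group of 3, both on axes from 0. The BH3-only sum of every library labelled TEAD4KO (49.6 to 56.0 FPKM) is above that of every WT library (39.2 to 43.7 FPKM), and the ratio of anti-apoptotic to BH3-only sums is lower in each of them (1.70 to 1.96 against 2.04 to 2.27).

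Pairs of members were also set against each other within libraries, since BCL-XL binds BAD and BAX, and MCL1 binds NOXA. The ratio of BCL2L1 to BAX was 0.774 ± 0.0364 in WT and 0.815 ± 0.0493 under the label (SD, n = 6 each), with ranges that overlap. The ratio of BCL2L1 to BAD was 2.67 ± 0.228 in WT and 2.15 ± 0.315 under the label, and their ranges, 2.41 to 3.05 and 1.87 to 2.66, overlapped. The ratio of MCL1 to PMAIP1 was 5.11 ± 0.467 in untreated WT, 4.68 ± 0.158 in WT with GLUP, 4.64 ± 0.331 in untreated cells labelled TEAD4KO and 4.04 ± 0.308 in those with GLUP (SD, n = 3 each). Neighbouring groups in that order overlap.

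The genes whose log2(FPKM + 1) followed a member most closely over the 12 libraries were named for the 3 members with the largest F. For BAD these were PITX1 (Pearson r = 0.979), DNPH1 (r = 0.978) and APOE (r = 0.974), whose transcripts have 68.8%, 63.0% and 69.0% GC. For BCL2L1 they were MAEA (r = 0.972), SYDE1 (r = 0.960) and OIP5 (r = 0.958). For PMAIP1 they were PARP8 (r = 0.907), MB21D2 (r = 0.895) and CLMP (r = 0.888). The 12 points share 4 groups and the dependence on transcript length and GC content, so these values describe the libraries and carry no test.

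Other genes of the pathway were taken from 5 lists with 61 genes, of which 53 were tested. Over both treatments 13 of the 53 passed as higher under the label and 3 as lower, against 14.4% and 5.67% of all genes, and after correction for GC content and length 8 and 1 passed, against 7.99% and 6.01%. These counts describe the lists and were not tested. With GLUP over both genotypes 0 of 53 passed in limma, and 5 had an unadjusted p under 0.05, against 7.14% of all genes.

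Among other BCL2 relatives, 1 of 6 tested genes passed. BOK, a further pore-forming relative, was higher under the label by 0.36 with a standard error of 0.08 (limma, adjusted p = 0.006, and 0.083 after correction). BCL2A1 and BCL2L10 were at or near 0 in all libraries. The median of the 6 was -0.03, against 0.01 over all tested genes.

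In the apoptosome and caspase list, 4 of 16 tested genes passed as higher and none as lower, with a list median of 0.01. ENDOG, a mitochondrial nuclease, was higher by 0.67 (limma, adjusted p = 0.00045, and 0.033 after correction). BIRC5, which encodes the inhibitor of apoptosis survivin and peaks in mitosis, was higher by 0.26 (limma, adjusted p = 0.0048, and 0.018 after correction). The gene of the caspase 9 adaptor, APAF1, was at -0.25 and did not pass (limma, adjusted p = 0.055).

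In the death receptor arm, which reaches the mitochondria through BID, 2 of 10 passed as higher, with a list median of 0.03. FADD, the adaptor that recruits caspase 8, was higher by 0.35 (limma, adjusted p = 0.00028, and 0.0059 after correction), and TRADD, the TNF receptor adaptor, by 0.32 (limma, adjusted p = 0.0065, and 0.498 after correction). CASP8 itself, the protease of BID, was at 0.09 (limma, adjusted p = 0.352).

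Of the regulators of the members, 3 of 10 passed as higher and 2 as lower, with a list median of -0.09. DDIT3, a stress factor that represses BCL2 and induces BCL2L11, was higher by 0.33 (limma, adjusted p = 0.022, and 0.183 after correction), and ATF4, which induces PMAIP1, by 0.23 (limma, adjusted p = 0.044, and 0.321 after correction). MYC was higher by 0.17 (limma, adjusted p = 0.019, and 0.0036 after correction). HUWE1, a ubiquitin ligase of MCL1, fell by 0.32 (limma, adjusted p = 0.016, and 0.016 after correction), and USP9X, a deubiquitinase of MCL1, fell by 0.27 (limma, adjusted p = 0.0042, and 0.122 after correction).

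Of other p53 targets, 3 of 11 passed as higher and 1 as lower, with a list median of -0.01. GDF15 was higher by 0.43 (limma, adjusted p = 0.017), TP53I3 by 0.26 (limma, adjusted p = 0.0058) and FDXR by 0.26 (limma, adjusted p = 0.023), and MDM2, the ubiquitin ligase of p53, fell by 0.16 (limma, adjusted p = 0.046). After correction 0 of these 11 passed in either direction. CDKN1A, the cell cycle inhibitor that p53 induces, was at 0.02 by label (limma, adjusted p = 0.873) and at -0.12 with GLUP (limma, adjusted p = 0.833).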

How the data were processed

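RNA-seq libraries of HGC-27 cells were analysed on an online platform by the authors, and FPKM values per Ensembl gene were deposited by the authors, with 1 column per library. Per the submitters' processing notes, HISAT2, Cufflinks, RSEM and hg19 were named, and their roles are not given in the sources used here. FPKM divides by length and library total, so an unequal fragment length or GC bias of the libraries remains in the values. Relative depth could not be recovered, because the most common ratio between libraries held 0.906% of low genes.

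Values were analysed as log2(FPKM + 1) for 11225 rows whose mean reached 1 FPKM, in one 4-group model of all 12 libraries (limma 3.58.1, R 4.3.3, eBayes with trend), for 7 comparisons, two-sided, with Benjamini-Hochberg adjustment over all rows. The script was tested on simulated data. Corrections used splines with 5 degrees of freedom on length and GC of GENCODE v44lift37 canonical transcripts (98.1% of tested rows). Gene positions are on GRCh37 from that annotation. All 10 members are named. From 5 lists up to 3 passing genes per direction with the largest label effect are named, except 1 gene that is not reported here, and APAF1, CASP8, CDKN1A, BCL2A1 and BCL2L10 were named after their values were seen. The members and lists were chosen with earlier results of these data known. Deviations from the group mean correlated between samples of the same GLUP number at 0.106, 0.152 and 0.336. For the untreated numbers they correlated at -0.0569, 0.203 and -0.0149. These ranges overlap, and samples of unlike number were not compared. The alternatives are those of the closing section.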

Additional observations from a re-analysis of the deposited data

How the results depend on the processing

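Under the alternatives, the count of passing members stayed within 1.5 times the reported one in 146 of 168 cases and moved in 22. For the label over both treatments (6), it was 2 after rescaling to the same total, 2 after GC and length correction, 2 with that correction and the replicate block, 0 with the 2-fold limit, and 2 to 6 when a library was left out, with 2 only without WT untreated replicate 3. For the label without GLUP (1), it was 2 with a mean of at least 5 FPKM, 0 after GC and length correction with or without the replicate block, 0 with the 2-fold limit, and 1 to 2 on leaving out a library (2 without TEAD4KO untreated replicate 1 or TEAD4KO GLUP replicate 16). For the label with GLUP (2), it was 1 without a filter, 0 after rescaling, 1 with only the groups compared, 1 after GC and length correction, 0 with that correction and the block, 0 with the 2-fold limit, and 0 to 2 on leaving out a library (0 without WT GLUP replicate 14 or 16 or TEAD4KO GLUP replicate 14 or 15, 1 without WT GLUP replicate 15). The cause of these changes was not tested. The 0 members for GLUP and the interaction stayed 0 in every alternative.

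The replicate block alone left the counts at 6, 1, 2 and 0 and changed no call of a member. What the shared replicate numbers stand for is not given in the labels.

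Of 808 values of single members, 727 kept direction and side of the threshold, 49 were weaker, 4 stronger and 28 reversed. GC and length correction, with or without the block, turned BAX by label to -0.0520 over both treatments, -0.0523 without GLUP and -0.0516 with GLUP, and, for GLUP over both genotypes, BAX to 0.0162, BAD to 0.0048 and BCL2 to -0.0104. Rescaling turned MCL1 by label to -0.0968 and BCL2L11 to -0.0546, median-ratio scaling turned MCL1 to -0.0006, and quantile normalization turned MCL1 to -0.0661 and BCL2 with GLUP to -0.0060. On leaving out a library, values for GLUP ran from -0.0126 to 0.06 for BCL2, -0.0589 to 0.0371 for BCL2L11, -0.0538 to 0.0053 for BID and -0.0939 to 0.0132 for BAD, and by label from -0.0016 to 0.0367 for MCL1 and -0.0194 to 0.0766 for BCL2L11.

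Rescaling moved the median of all genes by label with GLUP from -0.0039 to -0.10 on the log2 scale, and BCL2L1 and BAD stood at 0.14 and 0.43 over both treatments under it. Of the genes passing over both treatments, 71.7% were higher as reported, 24.9% after rescaling, 57.4% with median-ratio scaling and 50.2% with quantile normalization. All genes passing numbered 2247 over both treatments, and without GLUP 608 as reported, 207 after correction and 320 after rescaling. Depth is unknown, so precision rests on the spread between 3 libraries a group.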
